A study of Mus musculus with 7 samples.

Results

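The genes described here are 35 genes of the endoplasmic reticulum (ER) that fold, move and dispose of secretory proteins, together with the sensors of the unfolded protein response. They were taken as a fixed list of symbols, not by their values, and all 35 were found among the 27179 genes counted in 7 RNA-seq libraries. Of these, 34 had enough counts to be tested. Sec61g, the gamma subunit of the translocation channel, had 0 to 8 counts per library and stayed out of every test.

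CD8 dendritic cells of C57BL/6 mice had been isolated by flow sorting, and total RNA had been extracted with a column kit. The libraries fall into 3 groups by surface CD103, the integrin alpha E chain encoded by Itgae. CD103 negative cells (n = 3) and CD103 low cells (n = 2) were untreated, and CD103 high cells (n = 2) carried the treatment label CpG, a DNA motif that engages Toll-like receptor 9. The last group is called CpG CD103 high here, since no comparison can part the treatment from the CD103 level. The labels date both CpG CD103 high libraries and CD103 negative replicates 1 and 2 to 2012, and CD103 negative replicate 3 and both CD103 low libraries to 2013. What was done on those dates, the tissue, the dose, the time after treatment and any pooling of animals are unstated in the sources used here. The series' title speaks of paralysis of CD8 dendritic cells in systemic inflammation, and the design text calls the libraries of a group biological replicates.

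Total counts were 4474211 to 4629181 per library. Values are CPM, counts scaled to a library total of 1000000, after TMM scaling, which corrects the library total for differences in composition, and levels between genes are compared as RPKM, the CPM per kilobase of the gene length that the files list. A log2 fold change comes from edgeR's quasi-likelihood test with the date as a term, fitted over all 10863 tested genes. A gene counts as called where its p, adjusted by Benjamini-Hochberg, was under 0.05. With that term, CpG CD103 high was in effect set against CD103 negative replicates 1 and 2, and CD103 low against CD103 negative replicate 3 alone. Itgae followed the labels, at 54.2 to 62.6 CPM in CD103 negative, 345 and 374 in CD103 low, and 990 and 1018 in CpG CD103 high. Cd8a, the CD8 alpha chain, stood at 1204 to 1481 CPM in every library. Marker lists of other cell types were low beside that of the cDC1 lineage, to which CD8 dendritic cells belong, with summed levels of 14228 to 21871 CPM for 10 cDC1 markers.

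Secretory proteins enter the ER through the Sec61 channel, fold with the help of BiP, calnexin, calreticulin and disulfide isomerases, and are pulled back to the cytosol for degradation when folding fails. When unfolded proteins build up, IRE1 splices the Xbp1 mRNA, PERK raises translation of ATF4, and ATF6 is cut to release a transcription factor, and together these raise the genes of folding and degradation. The cDC1 lineage is known for steady IRE1 and XBP1 activity without outside stress. Gene counts do not show Xbp1 splicing, ATF6 cleavage or translation, so what follows concerns mRNA levels only.

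Many of these genes share a control sequence, the ER stress element (ERSE), which consists of CCAAT and CCACG with 9 bases between them and is bound by ATF6 with the factor NF-Y. Windows from 250 bases before to 50 bases after the gene start, from RefSeq on GRCm38.p6, were found for 30 of the 35 genes. Hyou1, Manf, Derl1, Atf6 and Sec61a1 had no window. An exact ERSE on either strand stood in 8 of the 30 genes, against 37 of 27025 genes in the whole table (0.137%). The 200 bases before the start are printed for the best-known ERSE gene, Hspa5, and for the 3 genes that held an ERSE and were called between CpG CD103 high and CD103 negative, each 5′ to 3′ on the gene's own strand with the ERSE in capitals. The windows are chr2:34771890-34772089 (plus strand) for Hspa5, chr11:50325674-50325873 (minus strand) for Canx, chr12:17266389-17266588 (plus strand) for Pdia6 and chr19:6046376-6046575 (plus strand) for Syvn1.
Hspa5: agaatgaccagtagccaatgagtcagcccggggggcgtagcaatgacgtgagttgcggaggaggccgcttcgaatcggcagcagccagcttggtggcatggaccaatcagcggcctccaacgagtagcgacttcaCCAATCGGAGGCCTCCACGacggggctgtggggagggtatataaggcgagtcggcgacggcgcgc
Canx: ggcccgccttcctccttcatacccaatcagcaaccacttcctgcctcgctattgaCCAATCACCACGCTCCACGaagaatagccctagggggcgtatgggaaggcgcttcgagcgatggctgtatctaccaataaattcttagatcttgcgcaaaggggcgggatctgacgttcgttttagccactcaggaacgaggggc
Pdia6: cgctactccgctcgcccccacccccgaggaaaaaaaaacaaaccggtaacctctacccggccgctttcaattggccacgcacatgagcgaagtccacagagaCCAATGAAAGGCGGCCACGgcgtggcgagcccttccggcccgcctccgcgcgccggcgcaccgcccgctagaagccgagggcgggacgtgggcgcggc
Syvn1: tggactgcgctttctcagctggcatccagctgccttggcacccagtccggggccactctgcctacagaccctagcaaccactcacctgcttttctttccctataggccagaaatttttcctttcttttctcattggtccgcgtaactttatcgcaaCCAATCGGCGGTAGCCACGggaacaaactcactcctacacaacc

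The ERSE ran from 65 to 47 bases before the start in Hspa5, from 145 to 127 in Canx, from 98 to 80 in Pdia6 and from 44 to 26 in Syvn1. The other exact matches are shown to compare their spacers, with the CCAAT and CCACG ends in capitals, read on the strand that carries CCAAT. Calr, Creld2 and the second Hsp90b1 match lie on the strand opposite to the gene.
Calr: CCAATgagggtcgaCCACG
Creld2: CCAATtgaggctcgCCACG
Dnajc3: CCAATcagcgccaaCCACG
Hsp90b1: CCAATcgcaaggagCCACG
Hsp90b1: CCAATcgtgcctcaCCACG

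Hsp90b1 thus held a pair of elements, from 212 to 194 and from 107 to 89 bases before its start. The related ERSE-II, which consists of ATTGG and CCACG with 1 base between them, stood in Herpud1, from 52 to 42 bases before the start, and in Dnajb11, just after it, against 12 genes in the whole table (0.0444%). TGACGTGG, an element bound by XBP1 and ATF6, was found in Vcp alone among the 30 genes and in 193 genes of the table (0.714%). The C/EBP-ATF element, TGATG and AAT with 1 base between them, was in none of the 30 genes and in 293 genes of the table (1.08%). All searches covered both strands with no mismatch. ERSE and ERSE-II both hold CCACG, which TGACGTGG holds on its opposite strand, but no stretch in these genes matched more than 1 of them.

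**Figure D1:**
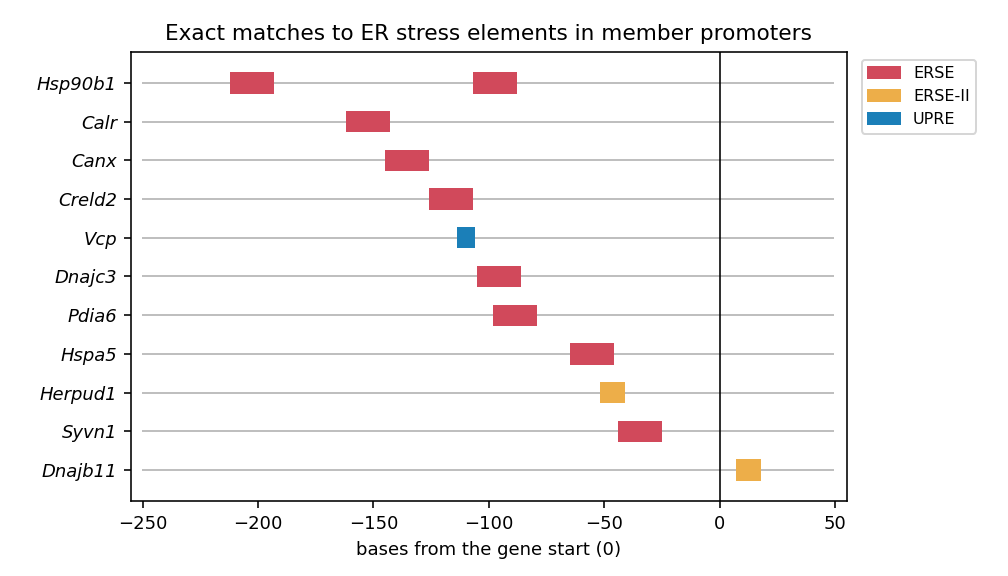
Exact matches to ERSE, ERSE-II and TGACGTGG (marked UPRE) in the promoter windows of the 11 genes that held any, with the distance from the gene start in bases on the x axis and 1 gene per row. Hsp90b1 holds 2 ERSE matches, and every match but that of Dnajb11 lies before the start.

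Part of the folding machinery was among the most abundant mRNA of these cells. Averaged over the 7 libraries, Calr (calreticulin) stood at 665 RPKM, Pdia3 (its partner isomerase ERp57) at 607, Hspa5 (BiP, the main ER chaperone) at 523 and Hsp90b1 (GRP94, which folds Toll-like receptors and integrins) at 460. Herpud1 (287 RPKM), Sdf2l1 (206) and P4hb (202) followed. The sensors Atf6, Ern1 (IRE1) and Eif2ak3 (PERK) stood at 24.9, 13.98 and 13.0 RPKM, and the transcription factors Xbp1 and Atf4 at 80.5 and 56.8. Some folding and translocation genes lay below Xbp1 and Atf4, such as Dnajc3 (43.6), Dnajb9 (28.8) and Ssr1 (22.6). Ddit3 (CHOP, a pro-death factor of prolonged stress) was the lowest tested gene of the list at 6.27. The ratio of the highest to the lowest library had a median of 1.34 over the 34 tested genes and ran from 1.06 for Dnajc3 to 2.60 for Ddit3. Over the 31 genes of the list with a mean of at least 50 CPM the median was 1.337. That was near the 1.398 over all 3883 genes at that level. Together the 35 genes held 1.08 to 1.29% of all counts in a library. In the annotation 8 of them, Pdia3, Hspa5, Pdia4, Pdia6, Ppib, Syvn1, Derl2 and Ddit3, overlap another counted gene.

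**Figure D2:**
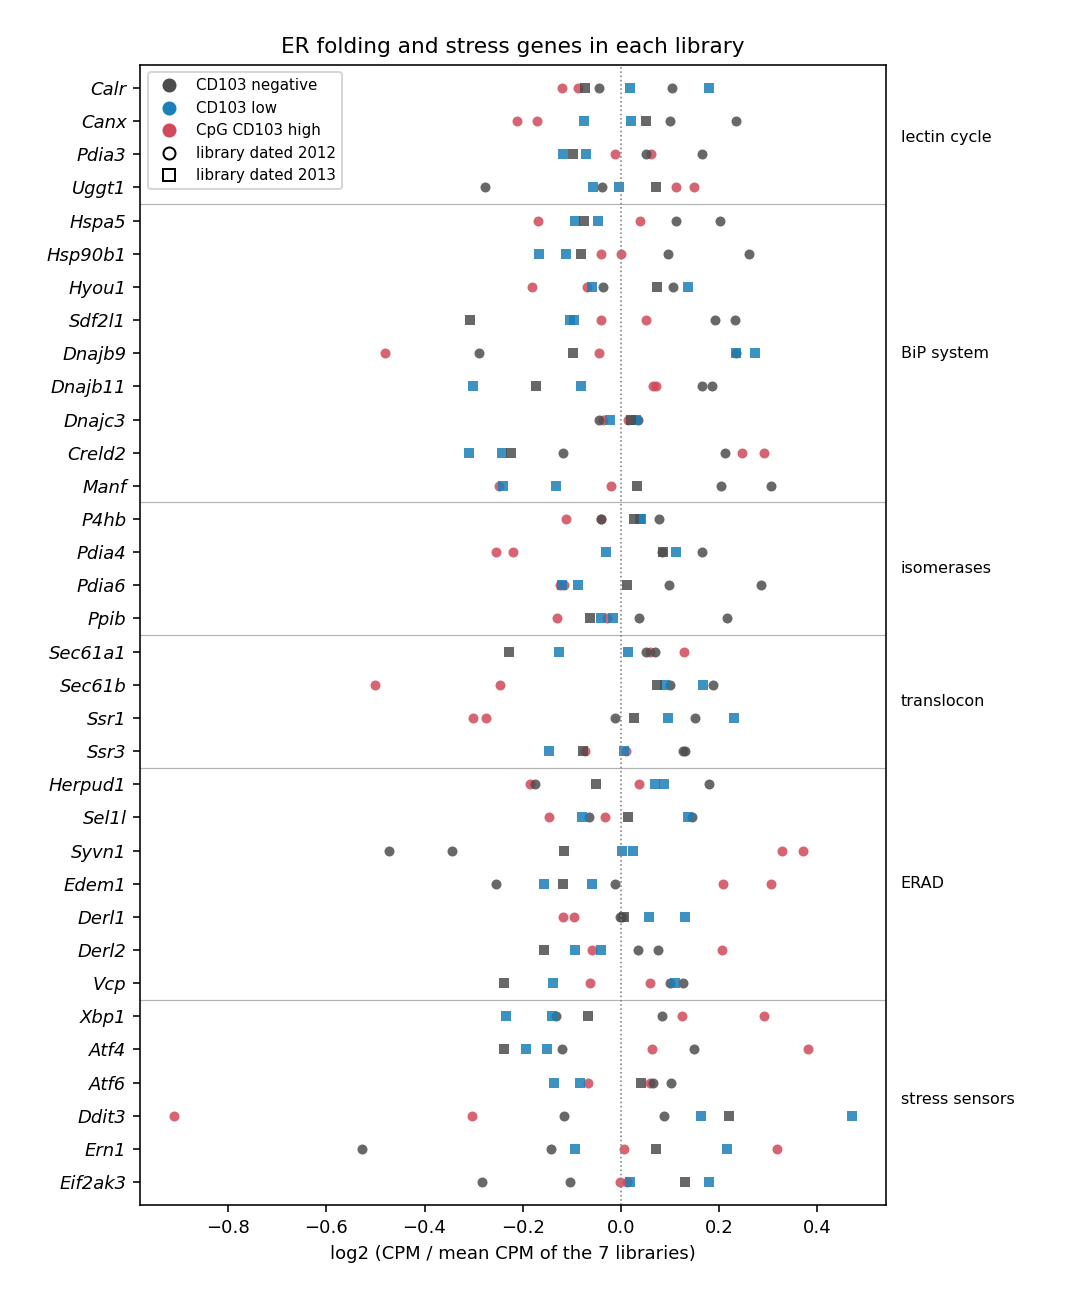
The log2 of the CPM in each library over the gene's mean CPM in the 7 libraries, for the 34 tested genes in rows by role, with colour for the group and shape for the date. Syvn1 and Edem1 show both CpG CD103 high libraries to the right of all others, and Canx, Pdia4, Sec61b and Ssr1 show both to the left.

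In CpG CD103 high against CD103 negative, 8 of the 34 tested genes were called (23.5%), against 26.3% of all tested genes. Syvn1 and Edem1, both of ER-associated degradation, rose, where 14.5% of all tested genes were called higher. Canx, Manf, Pdia4, Pdia6, Sec61b and Ssr1, genes of folding and translocation, fell, where 11.8% were called lower. Among genes with a mean of at least 50 CPM, a level chosen after the values were seen, 35.1% were called, and 7 of the 31 genes of the list at that level were (22.6%). The called changes were 1.24-fold to 1.69-fold. No gene of the list reached 1 on the log2 scale, which 9.56% of all tested genes did, and 3.22% of those with a mean of at least 50 CPM. The median log2 fold change was -0.11 over the list and -0.01 over all tested genes. Lower mRNA in a bulk library cannot be told apart from fewer cells that express the gene.

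**Figure D3:**
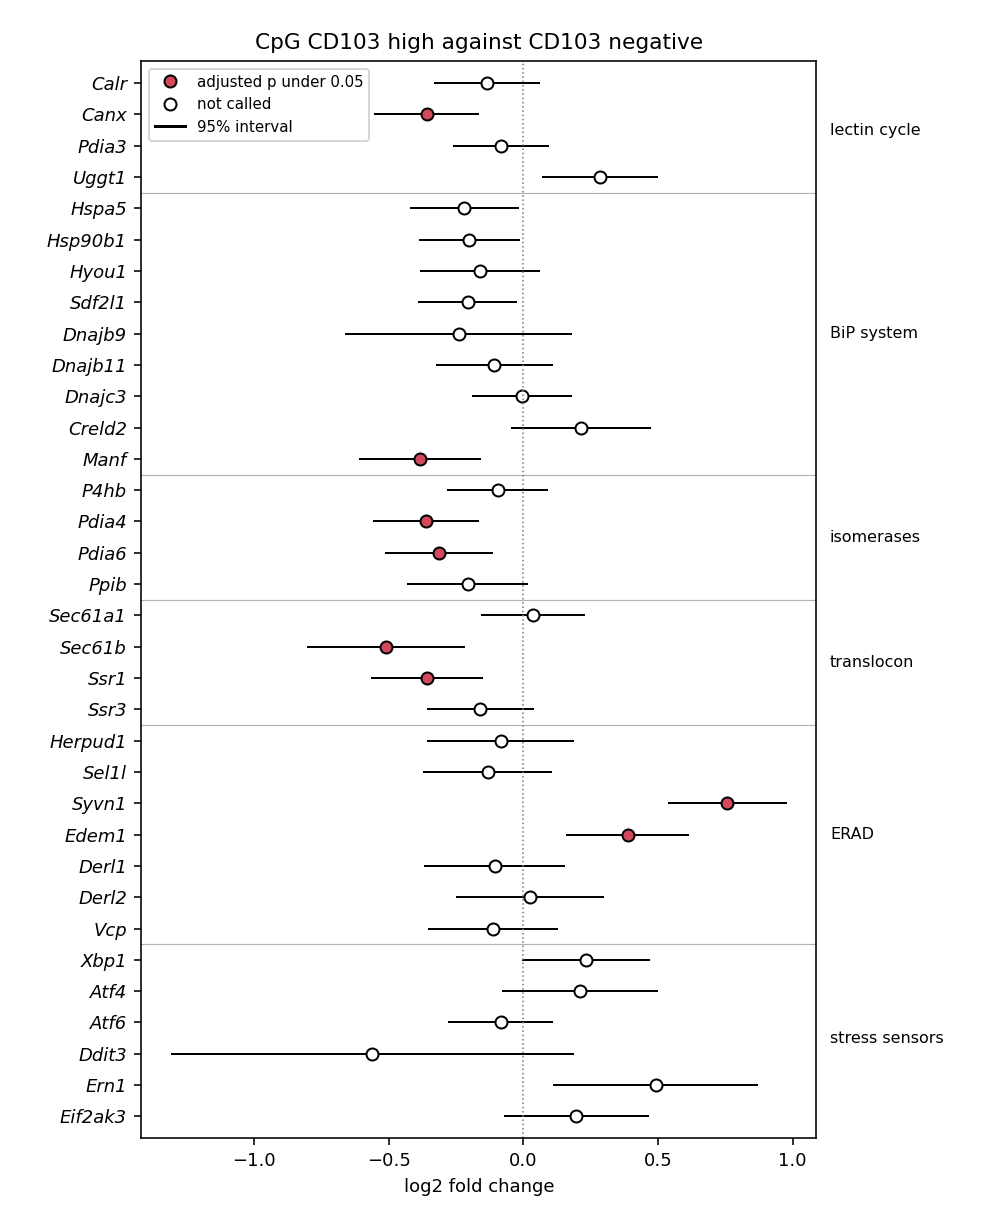
The log2 fold change of each of the 34 tested genes in CpG CD103 high against CD103 negative, with its 95% interval as a line and filled points for an adjusted p under 0.05. Syvn1 lies farthest to the right at 0.76, and the 6 genes called lower lie between -0.51 and -0.31.

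Calnexin and calreticulin hold sugar-bearing proteins in a folding cycle, and Uggt1 sends those still unfolded back into it. Canx (Entrez 12330, chr11:50293957-50325673), the membrane chaperone calnexin, stood at 599, 658 and 579 CPM in CD103 negative replicates 1 to 3, at 567 and 531 in CD103 low, and at 497 and 483 in CpG CD103 high. Both CpG libraries lay below all 5 untreated ones. It fell by 0.36 in log2 terms (SE 0.09, adjusted p = 0.0126), a call that was lost without CD103 negative replicate 2 (-0.29, adjusted p = 0.0797). Its soluble relative Calr (Entrez 12317, chr8:84842088-84846931) stood at 1253, 1388 and 1228 CPM in CD103 negative, at 1463 and 1308 in CD103 low, and at 1217 and 1189 in CpG CD103 high. The CpG values were again the lowest, but by less than the spread of the other libraries, and the log2 fold change of -0.14 (SE 0.09, 95% interval -0.33 to 0.06, adjusted p = 0.283) was not called. Pdia3, which pairs with both, had a log2 fold change of -0.08 (adjusted p = 0.46). Uggt1 stood at 319, 377 and 407 CPM in CD103 negative and at 418 and 429 in CpG CD103 high, and its log2 fold change of 0.28 (SE 0.10, adjusted p = 0.0512) missed the threshold. It was called higher with the stricter filter, with limma voom, with a replicate block in place of the date term and without CD103 negative replicate 2.

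BiP works with Hsp90b1, nucleotide exchange factors and J-domain partners that bring it clients. Hspa5 (Entrez 14828, chr2:34772090-34776529) stood at 1574, 1479 and 1299 CPM in CD103 negative replicates 1 to 3, at 1282 and 1325 in CD103 low, and at 1406 and 1217 in CpG CD103 high. The groups overlapped, and CD103 negative replicates 1 and 2 were the highest. Its log2 fold change in CpG CD103 high was -0.22 (SE 0.09, 95% interval -0.42 to -0.02, adjusted p = 0.0949), and it was called without CpG CD103 high replicate 1 (-0.33, adjusted p = 0.0284) and with library size as the only scaling (adjusted p = 0.0432). Manf (Entrez 74840, chr9:106888753-106891938), a secreted cofactor of BiP, stood at 205, 220 and 182 CPM in CD103 negative, at 151 and 163 in CD103 low, and at 176 and 150 in CpG CD103 high. It fell by 0.38 (SE 0.10, adjusted p = 0.0193), and both CpG CD103 high and CD103 low lay below all CD103 negative libraries. The Manf call was lost without CD103 negative replicate 2 (adjusted p = 0.0977), without CpG CD103 high replicate 2 (adjusted p = 0.0987) and with no date term (adjusted p = 0.104). The other 7 genes of this set, among them Hsp90b1 (-0.20), the exchange factor Hyou1 (-0.16), the J-domain proteins Dnajb9 (-0.24), Dnajb11 (-0.11) and Dnajc3 (-0.01) and the stress-induced Creld2 (0.21), were not called. Sdf2l1, a BiP partner, had a log2 fold change of -0.21 (adjusted p = 0.0868).

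Disulfide isomerases make and reshuffle the bonds between cysteines. Pdia4 (Entrez 12304, chr6:47796141-47813512) stood at 221, 233 and 221 CPM in CD103 negative, at 225 and 204 in CD103 low, and at 179 and 174 in CpG CD103 high, so that both CpG libraries lay below all others. It fell by 0.36 (SE 0.09, adjusted p = 0.0136), a call lost without CD103 negative replicate 2 (-0.32, adjusted p = 0.0711) or CpG CD103 high replicate 2 (-0.36, adjusted p = 0.0548). Pdia6 (Entrez 71853, chr12:17266589-17284785), which binds BiP and IRE1, stood at 327, 372 and 308 CPM in CD103 negative, at 288 and 281 in CD103 low, and at 281 and 282 in CpG CD103 high. CpG CD103 high and CD103 low overlapped, and both lay below CD103 negative. It shares 65 bases at its end with Atp6v1c2, a gene at 0 CPM in 6 of the 7 libraries. Pdia6 fell by 0.31 (SE 0.09, adjusted p = 0.0268), and 8 of 16 alternative settings lost the call, 5 of which left out a library. The adjusted p was 0.159 without CD103 negative replicate 2, 0.0751 and 0.0749 without CpG CD103 high replicate 1 or 2, 0.0572 and 0.057 without CD103 low replicate 1 or 2, 0.125 with no date term, 0.0542 with DESeq2 and 0.0533 in the earlier date alone. P4hb, the classical disulfide isomerase, had a log2 fold change of -0.10 (adjusted p = 0.425), and Ppib, the ER proline isomerase cyclophilin B, had -0.21 (adjusted p = 0.153).

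Ssr1 and Ssr3 belong to the translocon-associated protein complex beside the Sec61 channel. Sec61b (Entrez 66212, chr4:47474661-47483233), the beta subunit of the channel, stood at 52.6, 49.5 and 48.6 CPM in CD103 negative, at 49.2 and 51.9 in CD103 low, and at 39.0 and 32.7 in CpG CD103 high. The 5 untreated libraries lay close together and above both CpG libraries. The log2 fall of 0.51 (SE 0.13, adjusted p = 0.017) was the largest in size among the genes called lower, and the call was lost without CD103 negative replicate 1 (-0.47, adjusted p = 0.0859), without CpG CD103 high replicate 2 (-0.40, adjusted p = 0.0862) and with DESeq2 (adjusted p = 0.108). Ssr1 (Entrez 107513, chr13:37971401-37994208) stood at 208, 233 and 214 CPM in CD103 negative, at 247 and 225 in CD103 low, and at 174 and 171 in CpG CD103 high. It fell by 0.36 (SE 0.09, adjusted p = 0.018), with no overlap between CpG and untreated libraries, and the call was lost without CD103 negative replicate 2 (-0.28, adjusted p = 0.11) or CpG CD103 high replicate 2 (-0.36, adjusted p = 0.0671). The channel's alpha subunit Sec61a1 (0.03, adjusted p = 0.795) and Ssr3 (-0.16, adjusted p = 0.202) were not called.

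ER-associated degradation marks misfolded proteins with ubiquitin and draws them out of the membrane. Syvn1 (Entrez 74126, chr19:6046576-6053718) encodes HRD1, the ubiquitin ligase of that pathway. It stood at 71.2, 65.2 and 83.5 CPM in CD103 negative replicates 1 to 3, at 90.7 and 92.0 in CD103 low, and at 114 and 117 in CpG CD103 high. The 3 groups did not overlap and followed the order of their CD103 level. CD103 low against CD103 negative was not called, though, in edgeR's test (log2 fold change 0.13, SE 0.12, adjusted p = 0.881). Replicate 3, of the same date as CD103 low, was the highest of the CD103 negative libraries. How many of all tested genes show such an order was not counted. Syvn1 rose 1.69-fold in CpG CD103 high (log2 fold change 0.76, SE 0.10, 95% interval 0.54 to 0.97, adjusted p = 0.000589). Of the 8 calls it was the only one that held in all 16 alternative settings, with log2 fold changes from 0.65 to 0.82. Syvn1 shares 89 bases at its end with Mrpl49, a mitochondrial ribosomal protein gene, and without a stated strand setting their reads there cannot be told apart. Mrpl49 itself stood at 28.6 to 34.4 CPM in the 7 libraries and was not called (-0.19, adjusted p = 0.31).

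Edem1 (Entrez 192193, chr6:108824045-108859356), a lectin-like factor that hands misfolded glycoproteins to degradation, stood at 141, 167 and 155 CPM in CD103 negative, at 161 and 151 in CD103 low, and at 194 and 208 in CpG CD103 high. The untreated groups overlapped each other and lay below both CpG libraries. Edem1 rose 1.31-fold (log2 fold change 0.39, SE 0.10, adjusted p = 0.0198), a call lost without CD103 negative replicate 1 (0.27, adjusted p = 0.128), without CpG CD103 high replicate 2 (0.32, adjusted p = 0.105) and with DESeq2 (adjusted p = 0.0567). The partners of HRD1 were not called. Sel1l, its scaffold, had a log2 fold change of -0.13, Herpud1 -0.08, the membrane proteins Derl1 and Derl2 -0.11 and 0.02, and Vcp, the motor that extracts the protein, -0.11. The 95% interval of Sel1l ran from -0.37 to 0.10. Whether its change differs from that of Syvn1 was not tested.

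**Figure D4:**
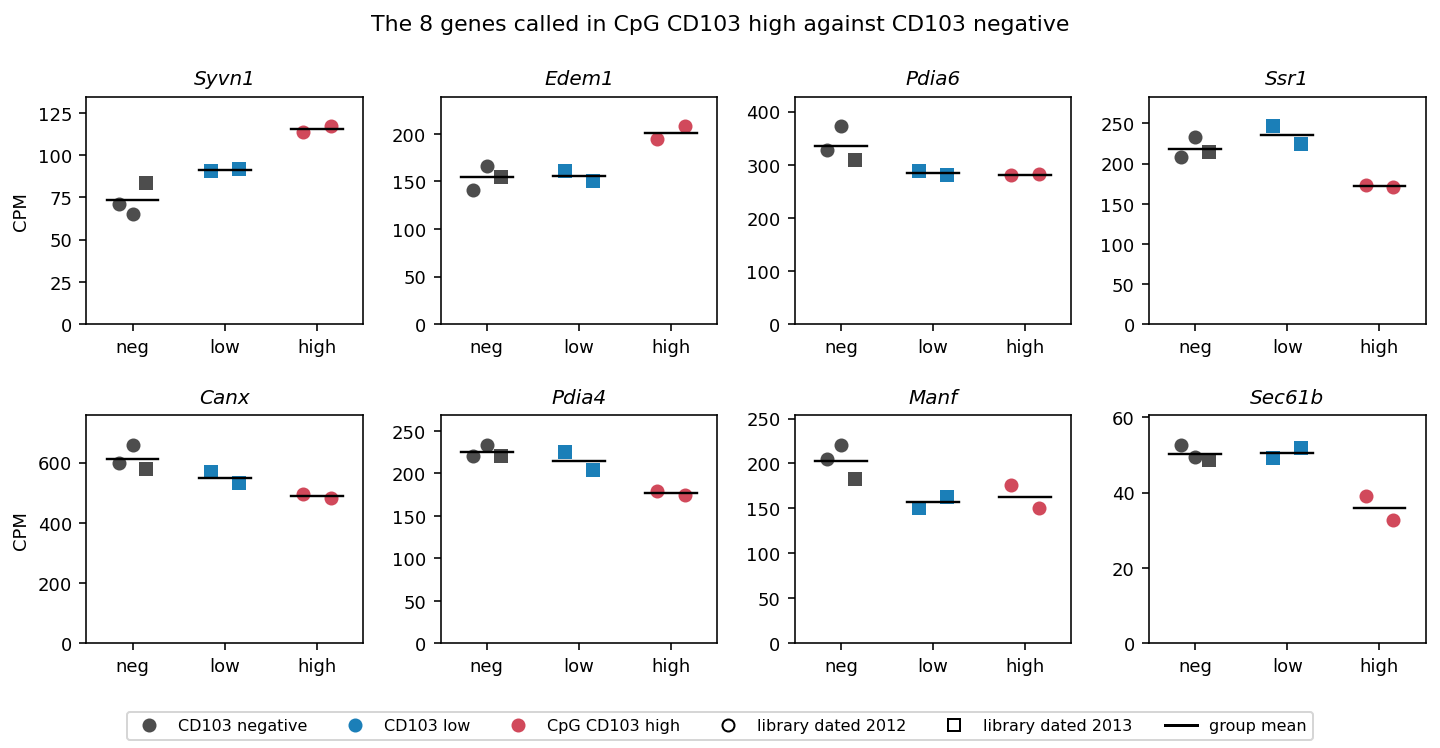
CPM in each library for the 8 genes called in CpG CD103 high against CD103 negative, with points for libraries, lines for group means and axes from 0. Syvn1 and Edem1 are higher in CpG CD103 high at 114 and 117 and at 194 and 208 CPM, and the other 6 genes are lower than in CD103 negative.

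With all 7 libraries and the date term, none of the 6 sensors and transcription factors was called by edgeR, DESeq2 or limma voom. In edgeR's test 1 had an unadjusted p under 0.05, as did 4249 of all 10863 tested genes. Xbp1 (Entrez 22433, chr11:5520641-5525993), the factor activated by IRE1, stood at 153, 132 and 138 CPM in CD103 negative, at 123 and 131 in CD103 low, and at 177 and 158 in CpG CD103 high. Both CpG libraries were above all untreated ones, yet the log2 fold change of 0.23 (SE 0.10, 95% interval -0.00075 to 0.46, adjusted p = 0.129) did not pass. Atf4 (Entrez 11911, chr15:80255184-80257545), the effector of PERK and other eIF2 kinases, stood at 109, 90.2 and 83.0 CPM in CD103 negative, at 85.7 and 88.3 in CD103 low, and at 128 and 102 in CpG CD103 high, with a log2 fold change of 0.21 (SE 0.13, adjusted p = 0.257). CpG CD103 high replicate 1 was its highest library, and replicate 2 overlapped CD103 negative.

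Ddit3 (Entrez 13198, chr10:127290793-127296291) rested on 13 to 33 counts per library, at 5.04, 5.81 and 6.37 CPM in CD103 negative, 6.12 and 7.57 in CD103 low, and 4.43 and 2.91 in CpG CD103 high. The CpG values were the lowest, and the log2 fold change of -0.56 had a 95% interval from -1.30 to 0.18 (SE 0.33, adjusted p = 0.243). Ddit3 overlaps Mbd6 and Mars1 in the annotation, so some of these reads may belong to a neighbour. Ern1 stood at 38.6, 50.4 and 58.4 CPM in CD103 negative, at 64.6 and 52.1 in CD103 low and at 55.8 and 69.4 in CpG CD103 high (log2 fold change 0.49, SE 0.17, adjusted p = 0.0562). Among the alternatives, edgeR called Ern1 higher with a replicate block in place of the date term. A fit without CD103 negative replicate 2 and a fit without CpG CD103 high replicate 1 also called it higher. Eif2ak3 (0.20) and Atf6 (-0.08) had adjusted p of 0.25 and 0.497. Over all roles, 26 tested genes were not called, and for 23 of them the 95% interval lay within -0.5 to 0.5 on the log2 scale, a 1.41-fold change.

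Against all 5 untreated libraries, both CpG CD103 high values were higher for 5 genes of the list, Uggt1, Creld2, Syvn1, Edem1 and Xbp1, and 16.3% of all tested genes showed this. Both were lower for 9 genes, Calr, Canx, Hyou1, P4hb, Pdia4, Sec61b, Ssr1, Derl1 and Ddit3 (26.5%), against 17.6% of all tested genes. The 10 genes that held an ERSE or ERSE-II had a median log2 fold change of -0.12, with 1 called higher and 2 lower. The 19 tested genes with a window and neither element had a median of -0.11, with 1 higher and 3 lower. Of 39 genes outside the list that held either element, 12 were tested, and 3 were called in each direction. In the same comparison, CpG CD103 high against CD103 negative, 14.5% of all tested genes were called higher and 11.8% lower. That grouping was made after the values were seen.

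In untreated cells, CD103 low against CD103 negative, 0 of the 34 genes were called by edgeR's quasi-likelihood test, 0 had an unadjusted p under 0.05, and DESeq2 and limma voom also called 0. Of all 10863 tested genes 0.138% were called, and 797 had an unadjusted p under 0.05. The log2 fold changes of the list ran from -0.22 to 0.35 with a median of 0.01, equal to the median of all tested genes to 2 decimals. Hspa5 stood at 0.0046 (SE 0.11, 95% interval -0.24 to 0.25, adjusted p = 0.997), Calr at 0.17 (SE 0.11, adjusted p = 0.792), Xbp1 at -0.12 (SE 0.13, adjusted p = 0.896), Atf4 at 0.07 (SE 0.16, adjusted p = 0.965) and Ddit3 at 0.10 (SE 0.36, adjusted p = 0.973). These intervals rest on the single CD103 negative library of the later date. Without that library and the date term, the same comparison called 6 genes of the list, Syvn1 higher and Dnajb11, Hsp90b1, Manf, Pdia6 and Sdf2l1 lower. The list's median was then -0.126 against 0.00028 for all tested genes. In that fit every CD103 low library was of the later date and every CD103 negative library of the earlier. Group and date thus cannot be told apart there. Calls among all tested genes rose as well, as the last section gives. CD103 low lay above all 3 CD103 negative libraries for Syvn1 and Derl1, where 16.1% of all tested genes did, and below them for 7 genes, Canx, Hsp90b1, Creld2, Manf, Pdia6, Xbp1 and Atf6, where 12.2% did.

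CpG CD103 high against CD103 low is the difference of the comparisons above, which with the date term rest on different CD103 negative libraries. Syvn1 alone of the 34 genes was called, 1.55-fold higher (log2 fold change 0.63, SE 0.15, adjusted p = 0.0406), against 6.22% of all tested genes in either direction and 3.44% higher. Leaving out any library other than CD103 negative replicate 3 ended that call, with adjusted p of 0.152 and 0.138 without CD103 low replicate 1 or 2, 0.0643 and 0.089 without CD103 negative replicate 1 or 2, and 0.0522 and 0.0796 without CpG CD103 high replicate 1 or 2. DESeq2 (0.221), the fit with no filter on low counts (0.0861) and that with no date term (0.161) also lost it, and the last called Ssr1, lower, in its place. Ssr1 (-0.50, adjusted p = 0.0735) and Sdf2l1 (-0.41, adjusted p = 0.089) came next. The anchors were not called, at -0.22 for Hspa5 (adjusted p = 0.37), -0.31 for Calr (adjusted p = 0.212), 0.35 for Xbp1 (adjusted p = 0.233), 0.14 for Atf4 (adjusted p = 0.718) and -0.66 for Ddit3 (adjusted p = 0.449). Without CD103 negative replicate 3, where no date term can be had, Xbp1 was called higher (0.42, adjusted p = 0.0252). In that fit CD103 low and the later date cannot be told apart. The list's median was -0.15, against -0.02 for all tested genes, but its sign depended on the date term. It was 0.0085 with no date term (all tested genes -0.0127) and 0.028 with that library left out (all tested genes 0.0078).

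The dates can be compared within CD103 negative, with 1 library of the later date against 2 of the earlier, so that its spread was taken from the other groups. CD103 negative replicate 3 had a summed level of 11112 CPM over the 35 genes, against 11983 and 12547 in replicates 1 and 2 and 10966 to 11600 in the other 4 libraries. Sdf2l1 was called lower at 184 CPM in replicate 3 against 261 and 268 (-0.52, SE 0.10, adjusted p = 0.0264). It was the single gene of the list called, where 3.46% of all tested genes were called and 1.3% lower. An unadjusted p under 0.05 was found for 7 of the 34 genes, Sdf2l1 among them, and for 2215 of all 10863 tested genes. Of those not called, Hsp90b1 (-0.26), Dnajb11 (-0.35), Sec61a1 (-0.29) and Vcp (-0.35) had negative log2 differences in replicate 3, and Syvn1 (0.29) and Eif2ak3 (0.32) positive ones.

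**Figure D5:**
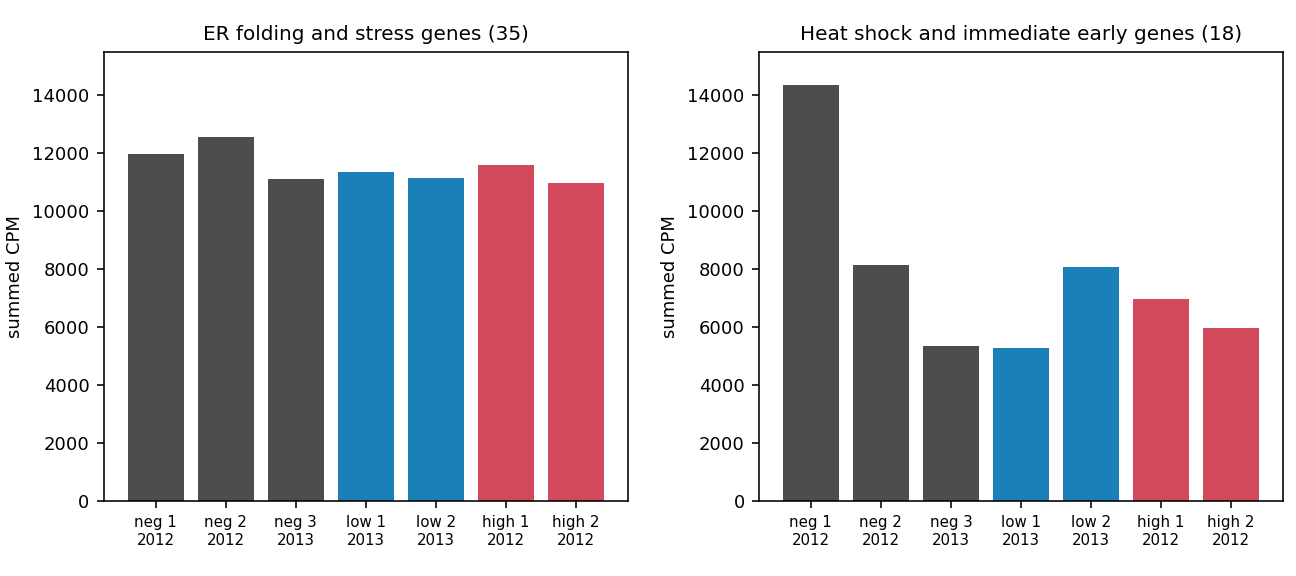
Summed CPM in each library of the 35 ER genes on the left and of 18 heat shock and immediate early genes on the right, coloured by group and with the year of the date below each bar. The ER sums lie between 10966 and 12547 CPM, while the other list runs from 5284 to 14358 CPM, highest in CD103 negative replicate 1.

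Lists of neighbouring pathways were set beside these genes, for CpG CD103 high against CD103 negative, where 14.5% of all tested genes were called higher and 11.8% lower. Of 22 tested genes of other ER folding factors, 0 rose and 4 fell. The isomerase Pdia5 stood at 323, 313 and 264 CPM in CD103 negative and at 230 and 212 in CpG CD103 high (-0.53, SE 0.09, adjusted p = 0.00191). Mogs, the glucosidase that starts trimming of the attached sugar, fell by 0.56 (adjusted p = 0.00307), and Ero1b, an oxidase of the isomerases, fell by 0.40 (adjusted p = 0.0129), a call lost without CD103 negative replicate 1 (adjusted p = 0.0756) and with DESeq2 (adjusted p = 0.0578). Of 29 genes of targeting to the ER and glycosylation, 0 rose and 5 fell. Spcs3, a signal peptidase subunit, stood at 299, 307 and 281 CPM in CD103 negative, at 289 and 280 in CD103 low and at 217 and 207 in CpG CD103 high (-0.51, SE 0.08, adjusted p = 0.00155). The oligosaccharyltransferase subunit Krtcap2 fell by 0.57 (adjusted p = 0.0161) and the signal recognition particle subunit Srp68 by 0.37 (adjusted p = 0.0209). The Krtcap2 call was lost without CD103 negative replicate 2 (adjusted p = 0.107) or CpG CD103 high replicate 2 (adjusted p = 0.0901). That of Srp68 was lost without these (adjusted p = 0.122 and 0.0585), without CpG CD103 high replicate 1 (adjusted p = 0.0697), with no date term (adjusted p = 0.163) and with DESeq2 (adjusted p = 0.12).

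Of 23 tested genes of ER-associated degradation outside the list, edgeR called 0, and 8 had an unadjusted p under 0.05. Of all 10863 tested genes 4249 had such a p. The most abundant, the signal peptide peptidase H13, stood at 275 to 352 CPM in CD103 negative and at 345 and 312 in CpG CD103 high (0.15, adjusted p = 0.309). Of 21 genes of ER to Golgi transport, 3 rose and 4 fell. Preb, which activates the coat GTPase Sar1, rose 1.60-fold from 167, 165 and 210 CPM in CD103 negative to 261 and 271 (0.68, SE 0.09, adjusted p = 0.000655), and the coat subunit Sec24d rose 1.62-fold (adjusted p = 0.00431). The cargo receptor Tmed2 fell by 0.56 (adjusted p = 0.0124), a call lost with no date term (adjusted p = 0.349), with DESeq2 (adjusted p = 0.135), without CD103 negative replicate 2 (adjusted p = 0.059) and without CpG CD103 high replicate 2 (adjusted p = 0.0659). Of 14 partners of ATF6 and IRE1, Creb3, a membrane-bound transcription factor, was the only one called, at a higher level (0.59, SE 0.10, adjusted p = 0.00242).

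Targets and kinases of the integrated stress response, which acts through ATF4, were called in 7 of 24 cases, 2 higher and 5 lower. The amino acid transporter Slc7a5 fell by 0.78 (adjusted p = 0.00126), the serine synthesis enzyme Psat1 by 0.78 (adjusted p = 0.00224) and Eif2s1, the eIF2 alpha subunit, by 0.50 (adjusted p = 0.00551). Eif2s1 stood at 218 and 263 CPM in CD103 negative replicates 1 and 2, at 119 in replicate 3 and at 168 and 171 in CpG CD103 high, and was not called with no date term (-0.24, adjusted p = 0.587). Heat shock and immediate early genes, known to respond to cytosolic stress and to cell isolation, had 0 higher and 7 lower of 17 tested, with a median of -0.66. For the later against the earlier date all 17 were negative, with a median of -0.89 and 0 called. The list's summed CPM was 6965 and 5971 in CpG CD103 high, above the 5337 of CD103 negative replicate 3. Hspa1a stood at 1223, 573 and 331 CPM in CD103 negative and at 8.42 and 34.2 in CpG CD103 high (-5.40, SE 0.51, adjusted p = 0.000118), and Hspa1b fell by 5.29 (adjusted p = 9.14e-05). These genes are near-identical copies whose reads the counting may have split. Hsp90aa1, the cytosolic relative of Hsp90b1, fell by 0.94 (adjusted p = 0.000225). In CD103 low against CD103 negative edgeR called 0 genes in each of these 7 lists, and 0 to 2 genes a list had an unadjusted p under 0.05. In that comparison 797 of all 10863 tested genes had such a p.

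Markers of other cells also moved with the groups. Summed CPM of 8 plasma cell markers, from a cell type rich in ER genes, was 9.47 to 26.8 in CD103 negative, 10.6 to 14.96 in CD103 low and 4.21 to 4.92 in CpG CD103 high, with Tnfrsf17 at 0 in all 7 libraries and Jchain at most 6.58. For 11 plasmacytoid dendritic cell markers it was 157 to 283, 168 to 170 and 171 to 218, highest in CD103 negative replicate 3, where Siglech reached 19.1 CPM. For 9 B cell markers it was 76.6 to 94.7, 68.6 to 71.6 and 11.7 to 13.2, mostly Ms4a1 and Cd22, with Cd79a at 0 to 1.15. For 9 macrophage markers it was 128 to 200, 194 to 228 and 371 to 469, of which Hmox1 made up 334 and 446 CPM in CpG CD103 high. For 7 erythroid markers it was 4.30 to 5.10, 8.49 to 21.3 and 46.3 to 51.4. For 8 cDC2 markers it was 34.9 to 75.6, 51.9 to 59.8 and 18.3 to 26.6. For 10 neutrophil and monocyte markers it was 60.5 to 74.5, 18.8 to 27.9 and 42.1 to 50.7, mostly Ccr2 in the untreated libraries. For 10 T and NK cell markers it was 0.86 to 3.19, 5.21 to 36.5 and 4.47 to 4.87, highest in CD103 low replicate 2. The 10 cDC1 markers summed to 14228 to 15762, 16260 to 16747 and 21695 to 21871. Of 6 macrophage markers tested in CpG CD103 high against CD103 negative, edgeR called Hmox1 higher (log2 fold change 2.32). Vcam1 (-2.21) and Spic (-1.30) were called lower. Of 8 plasmacytoid dendritic cell markers tested, Ly6c2 (1.96) and Pacsin1 (2.27) were called higher. Tcf4 (-1.31), Spib (-2.50), Runx2 (-1.20) and Cd300c (-0.92) were called lower. Of all tested genes 14.5% were called higher and 11.8% lower there. The part of these cells in the differences of the ER genes was not tested.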

How the data were processed

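Each library has 1 deposited file of unnormalized counts of reads by gene, with the gene length the authors list, per the file headers. CASAVA, Subread 1.4.6, featureCounts and mm10 are named, without roles, per the submitters' processing notes. The sources used here do not state the annotation release, the strand setting or the handling of multimapping reads. A further table with 7 columns whose names match no library label was not used here. Of 27179 Entrez identifiers, 25275 (93.0%) had a symbol in RefSeq's GRCm38.p6 table, and the rest held 0.533% of counts.

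Genes were kept by filterByExpr and fitted with edgeR 4.0.16 (R 4.3.3) by the quasi-likelihood test on all 7 libraries with terms for group and date, TMM factors and 3 residual degrees of freedom. p-values were adjusted by Benjamini-Hochberg over all 10863 tested genes. Standard errors are the log2 fold change over the square root of F. Alternatives were other scaling, no filter, a stricter filter, DESeq2 1.42.0, limma voom 3.58.1, no date term, a replicate block, each date alone and each library left out. Promoter windows are from RefSeq on GRCm38.p6. Protein sequences were not used here.

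Genes named with full statistics are those called in CpG CD103 high against CD103 negative, Hspa5, Xbp1, Atf4, Ddit3 and Calr, and up to 3 called genes by adjusted p from each other list, or its most abundant gene where none was called. Others are named where a count or an order singles them out. The genes and lists were chosen with earlier results of these data known. At these totals a count of 0 allows up to 3 counts, 0.648 to 0.671 CPM, which covers counting error only.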

Additional observations from a re-analysis of the deposited data

How the results depend on the processing

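Over 682 values of single genes under the alternatives, 613 kept their direction and their side of the threshold, 45 lost a call, 5 gained a call and 19 changed sign. The values cover the called genes of the list and Hspa5, Xbp1, Atf4, Ddit3 and Calr. For CpG CD103 high against CD103 negative they also cover Itgae, Cd8a and the genes named from other lists. Calls gained by other genes of the list, such as Uggt1 and Ern1, are not among them. Genes of the list called in CpG CD103 high against CD103 negative numbered 8, but 5 with DESeq2 and 2 to 9 with a library left out. Without CpG CD103 high replicate 2 these were Syvn1 and Canx, and without CD103 negative replicate 2 there were 6, with Creld2, Ern1 and Uggt1 added and 5 of the 6 lower calls lost. In CD103 low against CD103 negative the count was 0, and 6 without CD103 negative replicate 3, and in CpG CD103 high against CD103 low it was 1, but 0 with no filter on low counts or DESeq2, 0 with any of 6 libraries left out and 6 without CD103 negative replicate 3. Where a group was left with 1 library, its spread was assumed to be that of the others. Without CD103 negative replicate 3, CD103 low is the only group of the later date, so CD103 low and the date cannot be told apart.

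Of all tested genes, 2860 were called in CpG CD103 high against CD103 negative, 1459 with DESeq2, 1589 with no date term and 1738 to 2290 with a library left out. In CD103 low against CD103 negative 15 were called, 1 with no filter, 40 with DESeq2, 187 within the later date, 1 to 27 with a library left out and 1035 without CD103 negative replicate 3, where the date term could not be fitted. In CpG CD103 high against CD103 low 676 were called, 263 with no filter, 382 with DESeq2, 115 to 748 with a library left out and 1668 without CD103 negative replicate 3. The cause of these shifts was not tested. With library size as the only scaling the median of all genes in CD103 low against CD103 negative moved from 0.01 to -0.10 and that of the list to -0.10, and the calls of CpG CD103 high against CD103 negative split into 1368 higher and 1446 lower, from 1576 and 1284. In CpG CD103 high against CD103 low they split into 477 and 229, from 374 and 302.

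The labels number the replicates of each group, and the numbers were not shown to pair libraries. The log2 difference between replicates 1 and 2 of a group was correlated between groups over the 10863 tested genes. CD103 negative replicate 3 was not used there. The correlation was 0.168 between CD103 negative and CpG CD103 high. It was 0.0024 between CD103 negative and CD103 low and -0.0064 between CD103 low and CpG CD103 high. With a replicate block in place of the date term, which cannot be fitted together, genes of the list called were 10, 5 and 8 in the comparisons of CpG CD103 high and of CD103 low with CD103 negative and of CpG CD103 high with CD103 low, and all genes called were 3013, 1175 and 1775. Only CD103 negative has a replicate 3, so the block's term for that number takes up that library. CD103 low was then set against libraries of the earlier date alone, so CD103 low and the date cannot be told apart. The block added Uggt1 and Ern1 to the first comparison and called Xbp1 (0.39, adjusted p = 0.0269) and Atf4 (0.39, adjusted p = 0.0393) higher in the last. With it the list's median was -0.0992 in the second comparison (all genes 0.0299) and 0.0077 in the last (all genes -0.0145).

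Small values changed sign and stayed uncalled. In CD103 low against CD103 negative, Hspa5 was -0.0039 with relative log expression scaling and with DESeq2, -0.104 with library size only, -0.154 with no date term, -0.226 with the replicate block, -0.0064 within the later date, -0.0177 to 0.0296 with a library left out and -0.255 without CD103 negative replicate 3. Atf4 was -0.0422 with library size only, -0.111 with no date term, -0.185 with the block and -0.22 without CD103 negative replicate 3. Ddit3 was -0.0067 with library size only and -0.0572 to 0.249 with a library left out. In CpG CD103 high against CD103 low, Hspa5 was 0.0086 with no date term, 0.0049 with the block and 0.028 without CD103 negative replicate 3, and Atf4 was -0.0263 to 0.292 with a library left out. Depth limits Ddit3 and Sec61g, at 13 to 33 and 0 to 8 counts.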
